A study of Glycine max with 46 samples.

Results

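The 100 soybean (Glycine max) transcripts described here were those whose abundance peaked 3 h after imbibition, the uptake of water by the dry seed. They were chosen by the measured values themselves, from the authors' normalized counts averaged over the sequencing runs of a replicate and then over the replicates of a stage. A gene had to have a mean of at least 200 normalized counts at 3 h and its highest stage mean there. All 3 of its replicates at 3 h also had to exceed every replicate of dry seed, 16 h and 27 h. The 768 genes from Glyma13g01791 to Glyma13g12220 were left out. Of the 54175 genes in the table, 671 passed, and the 100 with the highest ratio of the 3 h mean to the next highest stage mean were taken, 10 being added to both means. The height of these genes at 3 h is therefore a description, and no test is given for it.

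RNA came from the soybean genotype Williams 82, grown under 16 h of light and 8 h of dark at 22 °C. The tissue is labelled whole seed, while the extraction protocol speaks of embryos, so which of them was used is not settled. No genotype or agent differed between samples. The groups are early, mid and late desiccation, in which the seed dries on the plant, then mature dry seed, and seed 3, 16 and 27 h after imbibition, with 3 replicates each. The labels do not say whether replicates came from separate plants or seed lots, so p-values measure the spread between these samples only. The table names genes by IDs alone. None of its IDs (0 of 54175) was found among the 59048 genes of the RefSeq table for assembly Glycine_max_v4.0, so no gene name, product or sequence is given, and the tissue could not be checked against named markers.

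A dry seed holds messenger RNA that was made during maturation and stored through drying. After water enters, respiration resumes, translation restarts on this stored RNA, and new transcription follows. Transcripts that peak early and then decline are therefore one of the classes followed in germination studies, set between the stored transcripts of the dry seed and the growth transcripts of the seedling. In bulk samples, more RNA per cell and more cells of one kind cannot be told apart.

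Depth was 43.8 to 86.5 mega-reads per replicate except in replicate 3 of late desiccation, which held 2.53 mega-reads from 1 run, so that 1 read was worth 8.68 normalized counts there. The labels list a second run of that replicate, which was not analysed here because no column could be matched to it; whether the 1 unused column holds it was not settled. The first runs of replicates 1 and 2 of that stage were also shallow, with 3.09 and 3.26 mega-reads, and their depth came from the second. A member had as few as 2 reads in that replicate. In every replicate at 3 h each member had at least 427 reads. Libraries of 1 stage differed in quiet genes: the number of genes at 0 reads was 20482, 4649 and 4577 in replicates 1, 2 and 3 of dry seed. The first and last runs of a replicate did not always give like values. In 96 of 100 members the median size of their difference, whatever its sign, was under 1.5-fold over the 20 replicates with several runs. The same held for 96.6% of the genes with a 3 h mean of 200 or more. Here these include Glyma13g genes that the rule left out. In 12 members the difference was 2-fold or more in at least 1 replicate, beside 5.71% of those genes. The ratio of 3 h to dry seed differed more than 2-fold between first and last runs in 8 members, beside 3.04% of those genes, and in the median member it was 2.17 in first and 1.87 in last runs. The cause was not tested.

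One member, Glyma12g06606, differed between runs in all 20 of these replicates, and its averaged values are not a transcript level. At 3 h it had 914, 1034 and 1581 normalized counts in the first runs of replicates 1, 2 and 3, and 1.34, 4.74 and 0 in the last runs. A run difference of at least 2-fold in the same direction in all 20 replicates was seen in 1% of the members and in 1.11% of the 11032 genes with a 3 h mean of 200 or more. In the last runs alone, 98 members still had their highest stage mean at 3 h, the exceptions being Glyma12g06606 and Glyma08g22210.

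The excess at 3 h was modest, and every member was already present before water uptake. The ratio that ranked the genes was 2.89 for the first, 1.63 in the median and 1.44 for the last, and 4 members exceeded 2. In all, 7 genes of the table with a 3 h mean of 200 or more stood at such a ratio of 2 or more at 3 h, and none reached 4. The same count with each stage in the place of 3 h was 7 for early desiccation, 29 for mid desiccation, 15 for late desiccation, 119 for dry seed, 64 for 16 h and 2256 for 27 h. The lowest stage mean of any member before imbibition was 25.2 normalized counts, and 96 of 100 had 50 or more at each of the 4 stages before imbibition.

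Summed over the 100 genes, the members took 0.749%, 0.705% and 0.728% of the normalized total in replicates 1, 2 and 3 at 3 h, against 0.367%, 0.326% and 0.360% in dry seed. At 16 h they took 0.592%, 0.517% and 0.522%, and at 27 h 0.218%, 0.217% and 0.243%. The groups do not overlap, which the choice of genes sets for 3 h. The plot of this share by replicate also shows desiccation, where replicate 3 held 0.593% at the early and 0.492% at the mid stage, well above the other replicates of those stages.

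**Figure D1:**
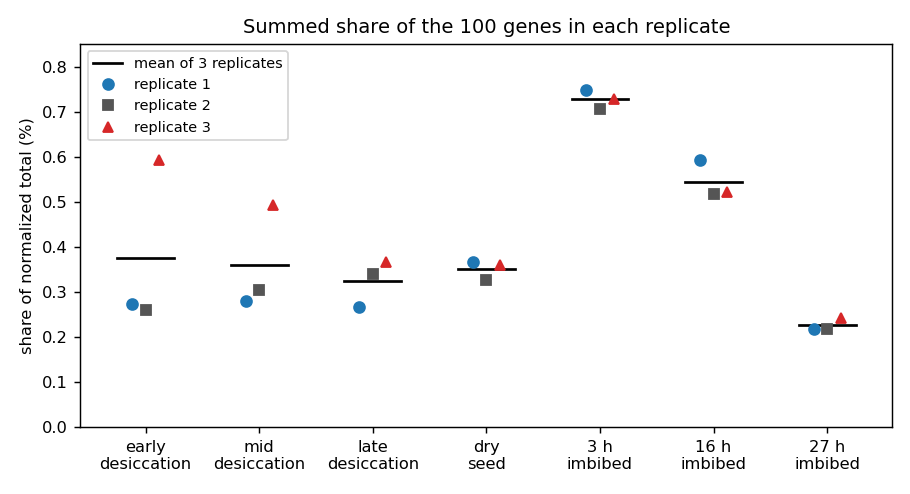
Summed share of the 100 genes in the normalized total (percent, y axis) for each of 21 replicates, by stage (x axis); symbols are replicates and bars are means of 3. The 3 h replicates lie between 0.705% and 0.749%, and replicate 3 of early desiccation, at 0.593%, comes closest to them.

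By single genes, the members' 3 h means ran from 202 to 10866 normalized counts with a median of 739. Of the 100, 36 had 1000 or more and 31 had under 500. The 3 h mean was 2.08-fold the dry seed mean in the median member, with a range of 1.46 to 8.69, while over the 11032 genes with a 3 h mean of 200 or more the median was 0.984. Against 16 h the median was 1.86-fold (1.44 to 3.75), beside 1.20 for those genes, and against 27 h 4.99-fold (1.48 to 85.7), beside 1.54. In 12 members dry seed held under 25% of the 3 h mean. The rule favours genes with close replicates at 3 h, so their spread is only described. The coefficient of variation at 3 h was 11.6% in the median member, 0.312% in the tightest (Glyma13g00780) and 42.4% in the widest (Glyma13g22260). It was not computed for other genes. At 3 h, 36 members were highest in replicate 1, 31 in replicate 2 and 33 in replicate 3.

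The gene ranked first, Glyma08g10410, had 313, 325 and 278 normalized counts in replicates 1, 2 and 3 at 3 h. In dry seed it had 43.9, 39.2 and 62.4. At 16 h it had 97.3, 99.5 and 100.4, and at 27 h 67.1, 61.0 and 41.7. All 18 other replicates lay below the lowest 3 h value, but replicate 3 of early and of mid desiccation, at 214 and 153, stood far above the other replicates of those stages, which lay between 20.6 and 43.2. In late desiccation this gene had 58.5, 68.2 and 17.4.

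Glyma01g43460, ranked second, was the member with the largest ratio of 3 h to 27 h. Its replicates at 3 h had 2245, 2633 and 1067 normalized counts, against 500.2, 286 and 233 in dry seed. At 16 h it had 1029, 813 and 762, and at 27 h 14.98, 23.7 and 30.6. Replicate 3 was the low one at 3 h and the high one throughout desiccation, where it had 1207, 1230 and 1128 at the early, mid and late stage, so the 3 h and desiccation values overlap. Replicates 1 and 2 of the desiccation stages lay between 283 and 529.

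Glyma13g26290, next in rank, had 385, 454 and 710 normalized counts at 3 h, against 79.7, 61.9 and 75.6 in dry seed. At 16 h it had 211, 136 and 110.2, and at 27 h 27.5, 14.0 and 28.3. Its highest other value was 354 in replicate 3 of mid desiccation, just under the lowest at 3 h. The size of the step depended on the run: the mean at 3 h was 10.9-fold the dry seed mean in first runs and 4.38-fold in last runs. Glyma10g09470, at rank 4, had close replicates at 3 h. It had 510.3, 515 and 533 at 3 h, against 275, 203 and 223 in dry seed, and between 109 and 241 in every replicate of the other stages. These averages combine unlike runs. The first runs had 599, 586 and 639 at 3 h against 226, 141 and 184 in dry seed, a ratio of 3.31. The last runs had 422, 443 and 428 at 3 h against 325, 303 and 285 in dry seed, a ratio of 1.42. In both kinds of run every 3 h replicate lay above every dry seed replicate.

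**Figure D2:**
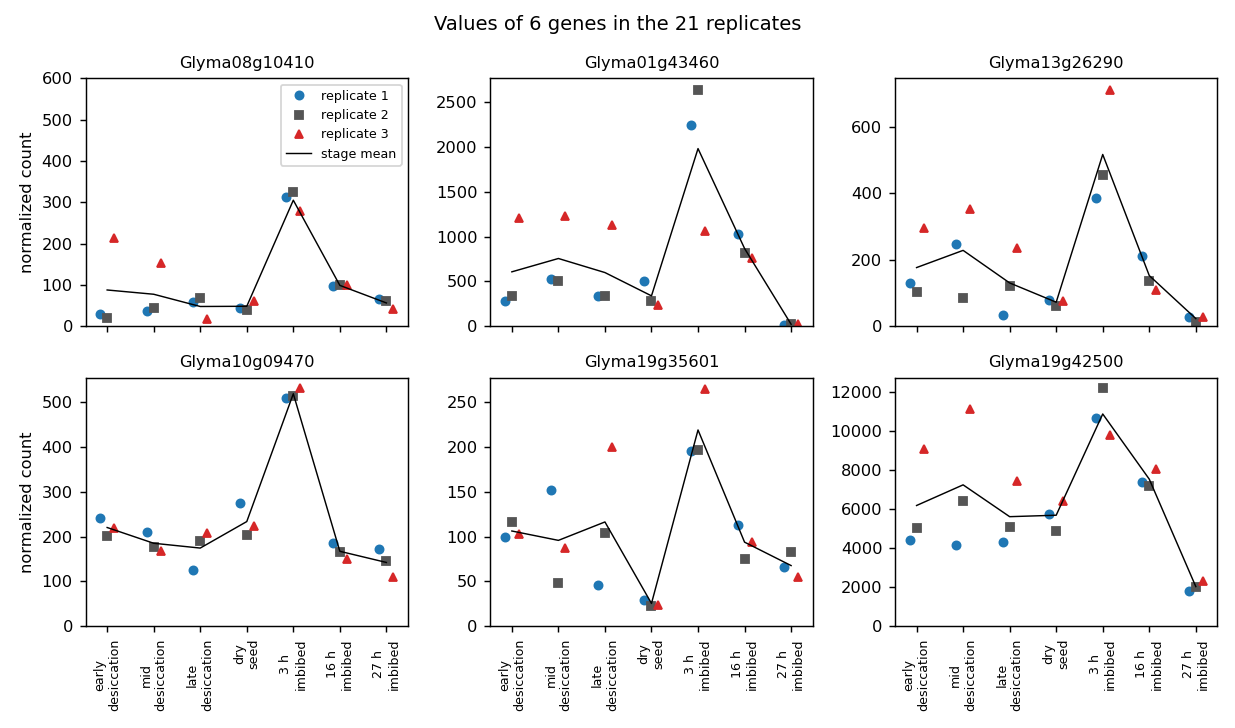
Normalized counts (y axis, linear, each panel on its own scale) of 6 members in the 21 replicates by stage (x axis), with a line through the stage means. In each panel the highest stage mean is at 3 h, and in Glyma08g10410, Glyma01g43460 and Glyma13g26290 replicate 3 of early and mid desiccation lies above replicates 1 and 2.

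The ratio of ranks 5 to 20 lay between 1.93 and 1.82. These were Glyma03g39240, Glyma1129s50, Glyma08g13450, Glyma20g28631, Glyma20g25660, Glyma13g22260, Glyma02g02080, Glyma12g00600, Glyma18g01290, Glyma17g03500, Glyma10g41210, Glyma17g03250, Glyma19g43980, Glyma13g00780, Glyma04g01950 and Glyma04g37220. They shared a 3 h peak but not a level or a later course. The highest was Glyma12g00600, with 2574, 3156 and 3300.5 normalized counts at 3 h against 1526, 1211.5 and 1294 in dry seed. Its ratio of 3 h to dry seed was 2.88 in first runs and 1.67 in last runs. The lowest was Glyma08g13450, with 200.3, 187 and 244 at 3 h against 61.1, 75.5 and 87.9 in dry seed. Glyma08g13450 kept 49.7% of its 3 h mean at 27 h, while Glyma19g43980 kept 5.23%.

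Of the 5 most abundant members, 3 stood at ranks 92, 98 and 100 (Glyma17g37040, Glyma17g01500 and Glyma19g42500), and Glyma08g07210 and Glyma01g10900 at ranks 40 and 55. Glyma19g42500 averaged 10866 ± 1221 normalized counts at 3 h and 5677 ± 754 in dry seed (SD, n = 3 each). Glyma01g10900 averaged 8747 ± 1044 at 3 h and 3291 ± 1796 in dry seed, Glyma17g01500 7453 ± 792 and 5115 ± 1038, Glyma08g07210 7019 ± 1492 and 3096 ± 481, and Glyma17g37040 4973 ± 778 and 2049 ± 321. For Glyma17g01500 the ratio of 3 h to dry seed was 1.66 in first runs and 1.24 in last runs. In last runs its dry seed replicate 1, at 6677, lay above its 3 h replicate 3, at 6351.5. At the threshold, the ratios of ranks 98, 99 and 100 (Glyma17g01500, Glyma17g03520 and Glyma19g42500) were 1.456, 1.447 and 1.443. Those of the next genes, Glyma16g29841, Glyma09g41340 and Glyma14g05580, were 1.442, 1.441 and 1.441, so the list ends within a continuous series.

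The heat map of stage means shows the members present before imbibition, with the step up at 3 h that the rule sets. Through desiccation most were level: the highest of the 3 desiccation means was 1.25-fold the lowest in the median member and under 1.5-fold in 83. The stage next to 3 h was 16 h in 35 members, dry seed in 21, mid desiccation in 19, early desiccation in 12, late desiccation in 11 and 27 h in 2. The lowest stage was 27 h in 82.

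**Figure D3:**
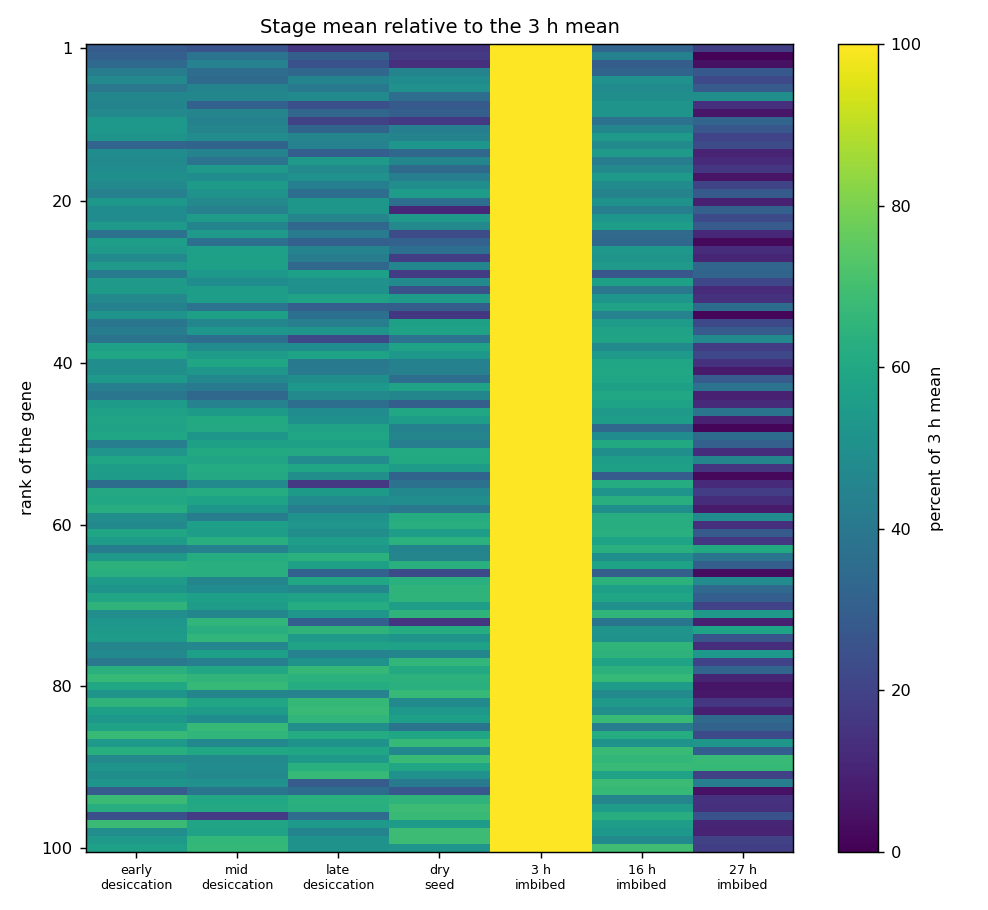
Stage means as percent of the 3 h mean (colour) for the 100 members in order of rank (y axis, first at the top) over the 7 stages (x axis). The 27 h column is darkest, with 60 members under 25% and 21 under 10% of their 3 h mean.

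A pattern that the choice of genes did not ask for was a split between replicates of the drying seed. Of the 100 members, 93 were highest in replicate 3 of early desiccation, 90 in replicate 3 of mid desiccation and 86 in replicate 3 of late desiccation. For the 11032 genes with a 3 h mean of 200 or more the shares were 24.4%, 34.6% and 70.5%, and for the 571 genes that passed the rule but ranked lower 60.4%, 68.1% and 83.7%. In the median member, replicate 3 of early desiccation held 71.9% of the 3 h mean, against 40.6% and 41.4% in replicates 1 and 2. At mid desiccation these values were 65.7%, 43.3% and 45.0%, and at late desiccation 61.4%, 37.6% and 45.8%.

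The split was there in both kinds of run. In the first runs alone, 93, 88 and 76 members were highest in replicate 3 at the early, mid and late stage, beside 27.3%, 35.7% and 62.9% of the genes with a 3 h mean of 200 or more. In the last runs alone they were 89 and 87 at the early and mid stage, beside 22.1% and 33.4%. Of the 100 members, 70 had all 3 h replicates above all 18 replicates of the other stages, beside 248 of the 571 genes ranked lower (43.4%). Of the 1862 genes with a 3 h mean of 200 or more and their highest stage mean there, 318 did so. The rule sets this for dry seed, 16 h and 27 h, and its ranking favours it for desiccation, so these counts are a description. The other 30 members overlapped with desiccation, 29 of them only through a replicate 3. Genes at 0 reads numbered 1410 in replicate 3 of early desiccation, against 17903 and 19057 in replicates 1 and 2. At mid desiccation they numbered 1712 in replicate 3, against 1628 and 2297, so replicate 3 did not stand apart there by this measure though 90 members were highest in it. At late desiccation they numbered 22606 in the shallow replicate 3, against 1511 and 1581. The part of these differences in the split was not tested.

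The tests below compare stages other than 3 h, which the rule did not set against each other, in one limma fit over all genes. A gene was called at a Benjamini-Hochberg adjusted p under 0.05 and at least a 2-fold change on the log2(value + 1) scale. All 100 members passed the filter on low values through their level at 3 h, which is in none of these comparisons. The 3 h replicates do enter the estimate of each gene's spread in this fit. The rule also used the replicates of dry seed, 16 h and 27 h. The p-values of this fit therefore rest on a spread that the rule helped to choose. The rule also holds every stage below 3 h, so that strong late rises could not occur among the members.

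Whether the members changed during drying was asked by late against early desiccation. None was called higher or lower by limma, beside 0.355% and 0.269% of all 46537 genes tested. By unadjusted p under 0.05 there were 9 members. The share of all genes at this unadjusted threshold was not computed, so the count has no background here. At the adjusted threshold edgeR on the recovered reads also called 0, beside 0.187% of all genes. The median log2 change was -0.09 (range -1.41 to 1.58), beside 0.39 over all genes tested and -0.06 over the genes with a 3 h mean of 200 or more. Replicate 3 bears on this result: without early desiccation replicate 3, 6 members were called higher and 1 lower, beside 14.8% and 3.17% of all genes. Without late desiccation replicate 3, 1 was called lower, beside 0.845%. Without both, 4 were called higher and 2 lower, beside 45.998% and 4.18%.

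In dry seed against late desiccation, 2 members fell and none rose, beside 2.55% of all genes called lower and 1.49% called higher. By unadjusted p under 0.05 there were 14 members, a count with no share of all genes computed to set beside it. Glyma19g35601 had 29.5, 22.8 and 23.3 normalized counts in dry seed, against 45.96, 103.4 and 199.6 in late desiccation. The groups did not overlap, and the log2 change was -1.93 ± 0.41 (SE, limma adjusted p = 0.00470). With the 2 compared stages fitted alone its adjusted p was 0.0754. The other fall was that of Glyma12g06606, the gene whose runs disagreed; its log2 change was -1.60 in the averaged values and -0.04 in edgeR, with an adjusted p of 0.989.

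The direction of this small count turned with the scaling. With TMM, 5 members were called higher and 2 lower, and edgeR, which scales by TMM, called 7 higher and 1 lower. Of all genes, 6.06% were called higher and 1.18% lower with TMM, and 6.04% and 0.793% with edgeR, so the members' counts are near the background. TMM moved the median log2 change over all genes to -0.01, against -0.37 as deposited, and that of the members to 0.44, against 0.06. Of all genes called, 83.7% were higher in dry seed with TMM, against 36.9% as deposited.

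Few single members were called between 16 h and dry seed, while the members' share of the total differed. The rule holds both stages below 3 h, which limits how far a member could change between them. Their summed normalized counts were 84894, 68289 and 73534 at 16 h against 75345, 57389 and 65588 in dry seed, which overlap. The shares of the normalized total given above do not overlap, since that total differed between the stages. In 16 h against dry seed, 3 rose and none fell, beside 9.22% of all genes called higher and 5.40% called lower. Of the genes with a 3 h mean of 200 or more, 7.37% were called higher and 14.2% lower. By unadjusted p under 0.05 there were 19 members, again with no share of all genes computed at that threshold. The median log2 change was 0.10 (range -0.52 to 1.84), beside -0.17 over all genes and -0.25 over the genes with a 3 h mean of 200 or more. Of the 571 genes ranked lower by the rule, 17 rose and 4 fell.

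All 3 genes that rose were among the 12 whose dry seed mean was under 25% of the 3 h mean. The rule largely sets this. It holds 16 h below 3 h, so a 2-fold rise needs a dry seed mean well below 3 h. Glyma19g35601 had 113, 74.9 and 93.5 normalized counts at 16 h, against 29.5, 22.8 and 23.3 in dry seed (log2 change 1.84 ± 0.41 SE, limma adjusted p = 0.00206). Glyma16g29330 had 2262, 1546 and 1459 at 16 h, against 788, 522 and 534 in dry seed (log2 change 1.51 ± 0.39 SE, limma adjusted p = 0.00722). In both genes every 16 h replicate lay above every dry seed replicate. Glyma17g36360, with 704, 547 and 510.4 at 16 h against 320, 197 and 175 in dry seed, also did not overlap (log2 change 1.38 ± 0.44 SE, limma adjusted p = 0.0271). Its call was lost with run 1 alone and without dry seed replicate 2 or 3 or 16 h replicate 1 or 2, where the adjusted p lay between 0.0624 and 0.0995. Without dry seed replicate 1 the count of rises was 8, beside 7.44% of all genes called higher. In that replicate 61 of the 100 members were highest of their stage, beside 62.7% of the genes with a 3 h mean of 200 or more. Glyma17g36360 falls outside the rule for named genes and was chosen after its values were seen.

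The members were lower at 16 h than at 3 h, as the rule requires, and lower again at 27 h. In 27 h against 16 h, 63 members fell and none rose, beside 8.35% of all genes called lower and 6.45% called higher. In each of the 63, which were picked by this same comparison, all 3 replicates at 27 h lay below all 3 at 16 h. Overlap was not counted over all genes, so this has no background here. The rule holds all these genes below their 3 h level at both times. Of the 571 that ranked lower, 304 fell (53.2%), and of the 11032 genes with a 3 h mean of 200 or more 26.5% fell. The median log2 change was -1.39 in the members, -1.07 in the 571 and -0.39 in the 11032. Leaving out any single replicate of either stage gave 60 to 66 falls.

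Glyma01g43460 had 14.98, 23.7 and 30.6 normalized counts at 27 h, against 1029, 813 and 762 at 16 h, the steepest fall (log2 change -5.21 ± 0.55 SE, limma adjusted p = 6.90e-07). Glyma10g33760 had 13.3, 7.2 and 5.1 at 27 h, against 222, 185 and 193 at 16 h (log2 change -4.48 ± 0.41 SE, limma adjusted p = 3.93e-08). Both were well below dry seed as well. At the other end, 5 members had log2 changes above 0 and none of these was called. Glyma13g31150 averaged 502 ± 15.2 at 27 h and 492 ± 39.8 at 16 h (SD, n = 3 each), and Glyma08g13450 averaged 105 ± 11.0 and 104 ± 19.6; these 2 were chosen after their values were seen.

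**Figure D4:**
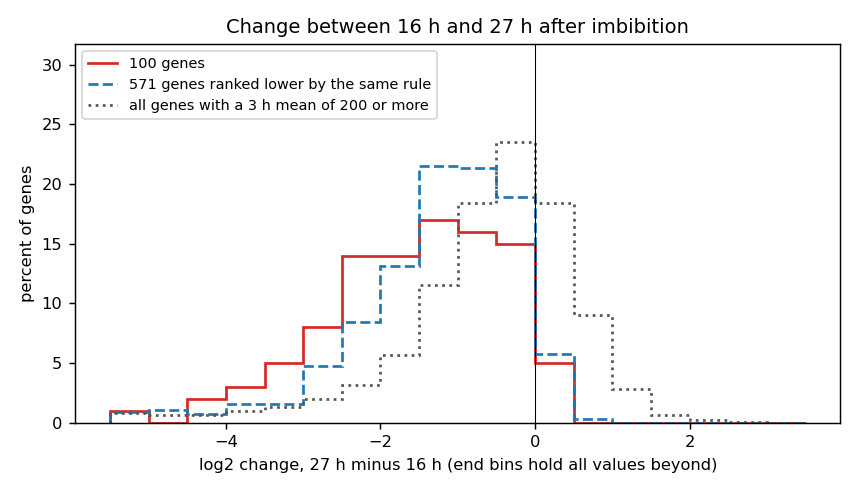
Percent of genes (y axis) by log2 change in steps of 0.5, 27 h minus 16 h (x axis), for the 100 members, the 571 genes ranked lower by the same rule and the 11032 genes with a 3 h mean of 200 or more. The members' distribution lies to the left, with a median of -1.39 against -1.07 and -0.39.

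By 27 h most members were below their dry seed level too. In 27 h against dry seed, 58 fell and 1 rose, beside 13.1% of all genes called lower and 19.1% called higher. This comparison shares the dry seed samples with that of 16 h. Of the 571 genes ranked lower, 296 fell (51.8%) and 6 rose, and of the genes with a 3 h mean of 200 or more 38.9% fell. The median log2 change was -1.23 in the members, -1.03 in the 571 and -0.66 in the genes with a 3 h mean of 200 or more. Over all genes it was 0.12.

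Glyma10g33760 had 13.3, 7.2 and 5.1 normalized counts at 27 h, against 415, 200.4 and 169 in dry seed (log2 change -4.76 ± 0.41 SE, limma adjusted p = 5.06e-09). Glyma14g29040 had 1.8, 2.9 and 9.0 at 27 h, against 44.8, 80.3 and 79.4 in dry seed (log2 change -3.80 ± 0.54 SE, limma adjusted p = 5.30e-06). Its dry seed values also differed by run, with 23.6, 60.02 and 56.03 in first and 66.0, 125 and 141 in last runs, and its log2 change was -3.21 in first and -4.27 in last runs alone. The one rise was that of Glyma19g35601, with 65.4, 82.5 and 54.8 at 27 h against 29.5, 22.8 and 23.3 in dry seed (log2 change 1.38 ± 0.41 SE, limma adjusted p = 0.00991). This gene was the member with the lowest dry seed level, and its values in early desiccation were 99.7, 116 and 102.9.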

How the data were processed

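Seeds at 7 stages with 3 replicates each were sequenced in 1 to 3 usable runs. The submitters' processing notes name Trimmomatic 0.38 for the reads and list HISAT2 as a tool. How reads were counted, on which build and annotation and whether by strand, is not given here, so overlapping genes and near-identical copies are uncertain. The deposited signal values are read counts that the authors divided by a size factor per library. All values were whole multiples of 1 read (100%, tolerance 0.001 reads), so reads were recovered. Of 46 columns, 45 matched a label and 1 was not used. Replicate 3 of late desiccation has a single run here.

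Runs were averaged within replicates. The 46537 genes reaching 10 normalized counts in 3 or more replicates entered a single fit (limma 3.58.1, R 4.3.3) of log2(value + 1), with 1 mean per stage, variance trend, robust moderation. This scale understates changes of low genes. The procedure was tested on simulated data. edgeR 4.0.16 (quasi-likelihood) on reads summed over runs was an alternative. Summaries and figures used Python 3.11.15, numpy 2.4.6, pandas 2.3.3 and matplotlib 3.10.9.

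The members, lists and tests were chosen with earlier results of these data known. Named genes are ranks 1 to 20, the 5 highest 3 h means, ranks 98 to 103 and the 2 largest called changes per direction and comparison; Glyma17g36360, Glyma08g22210 and the 2 genes given with changes near 0 were added after their values were seen. Gene lists and promoter words could not be applied, because the IDs have no names here. Same-numbered replicates were not paired: their deviations from the stage mean correlated between -0.74 and 0.44.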

Additional observations from a re-analysis of the deposited data

How the results depend on the processing

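The falls at 27 h against 16 h (63) and the calls at 27 h against dry seed (59) stayed within 1.5 times under each alternative run: a pseudocount of 5, no filter, TMM, run 1 alone, the last run alone, the replicate block, no fold threshold, the compared stages alone, edgeR, and leaving out replicates. The shares of all genes called moved too. At 27 h against 16 h, 6.45% were called higher and 8.35% lower in the main fit. These were 25.5% and 13.5% with the compared stages alone, and 13.7% and 9.74% without replicate 3 of early and late desiccation. At 27 h against dry seed the main fit called 19.1% higher and 13.1% lower. With the compared stages alone these were 26.7% and 17.6%. The 3 smaller counts of members also moved. Dry seed against late desiccation gave 2 members, 7 with TMM (5 higher) and 8 with edgeR (7 higher). It gave 1 with the last run alone and 4 without replicate 3 of all desiccation stages. Of all genes, 4.04%, 7.24%, 6.84%, 3.59% and 17.7% were called under these settings in that order. Late against early desiccation gave 0, and 6 without replicate 3 of both stages or of all 3. Of all genes, 0.623%, 50.2% and 49.2% were called in that order. At 16 h against dry seed the count was 3, against 6 with TMM, 6 without a fold threshold and 9 with the 2 stages alone. It was 5 with edgeR and 6 with the last run alone. Without replicate 3 of early and late desiccation it was 8, and 7 without replicate 3 of all 3. In the order given, 14.6%, 14.7%, 22.2%, 24.4%, 13.6%, 13.7%, 23.4% and 23.2% of all genes were called. At 16 h against dry seed the members stayed below these shares under each of these settings. The cause was not tested. In dry seed against late desiccation this did not hold with edgeR, where 8 members were called beside 6.84% of all genes. The last run alone and the removal of replicate 3 from all desiccation stages were chosen after seeing the data. With 1 replicate left out at a time, counts ran from 0 to 7 (late against early desiccation), 2 to 3 (dry seed against late desiccation), 2 to 8 (16 h against dry seed), 60 to 66 (27 h against 16 h) and 55 to 62 (27 h against dry seed). In that order the shares of all genes called ran from 0.103% to 17.9%, 2.65% to 5.59%, 11.6% to 14.3%, 12% to 14.2% and 28.1% to 32.5%. The replicate block gave 3 (dry seed against late desiccation), 0 (late against early desiccation) and 4 (16 h against dry seed). It gave 63 (27 h against 16 h) and 60 (27 h against dry seed). Of all genes, 3.85%, 0.535%, 14.2%, 14.4% and 31.5% were called with the block.

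Membership was less firm. Of the 100 members, 77 stayed in the top 100 with TMM, 83 with run 1 alone, 75 with the last run alone, 99 and 94 with 1 or 50 added to both means, 76 and 69 with a minimum of 100 or 500, 70 when all 6 other stages had to lie below every 3 h replicate, 77 without replicate 3 of the desiccation stages, and 73 to 100 when 1 replicate was left out. Under TMM, run 1 alone and both other offsets together 67 stayed, among them 19 of the first 20. TMM moved the median of all genes, 3 h minus the stage, by 0.38 for early, 0.10 for mid and 0.42 for late desiccation (log2). Depth limits members in late desiccation replicate 3.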

Other observations

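By the numbering of the IDs, the members lay on all 20 chromosomes plus 1 on a scaffold, from 2 each on chromosomes 5, 9 and 16 to 10 on chromosome 8 and 9 on chromosome 19. Per 1000 genes of the table this is 0.826, 0.727 and 0.930 on the first and 2.78 and 3.53 on the last. One pair of members, Glyma17g03500 and Glyma17g03520, stood 2 rows apart in the table, and Glyma15g11871 and Glyma15g11950 stood 7 apart. Of the 80 neighbours of members in ID order with a 3 h mean of at least 50 normalized counts, 18 (22.5%) also had their highest stage mean at 3 h, beside 13.3% of the 16696 such neighbours of all genes. Neighbours can share reads where genes overlap, and this was not tested.

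Glyma17g03500 also differed between runs, though by under 2-fold in the median: at 3 h its first runs had 912, 944 and 773 normalized counts and its last runs 1632, 1763 and 1331 in replicates 1, 2 and 3. In both kinds of run its 3 h replicates lay above those of dry seed, which had 476, 314 and 335 in the first and 609, 365 and 408 in the last.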
